A study of Mus musculus with 12 samples.

Results

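The transcription factor genes Prrx1, Prrx2, Lhx2, Lhx9, Lmx1b, Msx1, Msx2, Emx2, Snai1 and Snai2 were followed through 12 RNA sequencing libraries of mouse forelimb buds. They were chosen by name, with earlier results of these data known, as homeobox and Snail family genes of the limb mesenchyme. Found by Ensembl identifier, all 10 were among the 53465 genes of the count files. All 10 passed the filter on low counts in each comparison, with between 370 counts (Snai2) and 43442 counts (Prrx1) in a single library.

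Homeobox genes encode transcription factors that bind DNA through a homeodomain, and several of them act together in the mesenchyme of the early limb bud. PRRX1 and PRRX2 are paired-related proteins of skeletogenic mesenchyme, LHX2, LHX9 and LMX1B are LIM-homeodomain proteins that link signals of the ectoderm to outgrowth and dorsal identity, and MSX1 and MSX2 are widely used as readouts of BMP signalling. SNAI1 and SNAI2 are zinc-finger repressors best known for driving epithelial cells into a mesenchymal state and for their roles in neural crest and mesoderm.

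The series labelled Tbx3 compared bud pairs of 3 embryos labelled Tbx3-deficient with those of 3 wild types at E9.75 to E10 (28 to 31 somites). The Tbx3-deficient embryos were homozygous for Tbx3ΔVenus, in which a Venus reporter followed by a transcription stop and polyadenylation signal sits at the start codon, in every cell of the embryo. The Hand2 series compared 3 Prrx1-Cre;Hand2Δ/Δc buds with 3 Prrx1-Cre;Hand2+/+ wild types at E10 to E10.25 (31 to 33 somites). Both Hand2 groups thus carry Prrx1-Cre, a Cre transgene expressed in limb mesenchyme under regulatory sequence of Prrx1, so deletion by Cre is driven in the limb mesenchyme. The genotype of the deficient buds writes the Hand2 alleles differently, as Δ and Δc, and that of the wild types as +/+. A difference in Hand2 outside the limb mesenchyme is therefore not excluded. All embryos were Swiss albino, and each replicate was 1 pair of forelimb buds. Litters are not given, so p-values measure the spread between these embryos.

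Total counts were 23.3 to 31.8 M (1e6) in the Tbx3 series and 60.2 to 68.6 M in the Hand2 series. Hand2 had 0.187, 2.21 and 0.384 CPM (counts per 1e6 counts, scaled by TMM) in Hand2-deficient buds and 119.6, 120.3 and 125.7 CPM in their wild types. Tbx3 averaged 77.7 ± 3.92 CPM in buds labelled Tbx3-deficient and 78.2 ± 1.00 CPM in their wild types (SD, n = 3 each). The count of the targeted gene therefore does not check the Tbx3 labels. It was not called lower (log2 fold change -0.0089, edgeR adjusted p = 0.954), although the allele is described with a transcription stop at the start codon. Whether that stop acts, and whether protein can be made, could not be read from a count over the whole gene. Hand2-deficient replicate 1 stood apart, with 5.37% of its counts on the ribosomal RNA gene CT010467.1, against a highest gene of 0.897% to 1.01% in the other libraries. By Xist and Y-linked counts the 3 buds labelled Tbx3-deficient were 1 female and 2 male against 3 female wild types, and the Hand2-deficient buds were 1 female and 2 male against 2 female and 1 male wild types.

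Promoter sequence was available for 9 of the 10 genes, as 10 windows of 250 bases before the annotated start (RefSeq, GRCm38.p6). The windows shown here are those of Snai1, the member that fell in Hand2-deficient buds, of Lhx2 (the first of its windows), one of those that rose there, and of Msx1, which was not called. They hold no base of a GENCODE exon, and capitals mark an E-box, CANNTG, the motif class that bHLH proteins such as HAND2 and zinc-finger proteins of the Snail family bind.
Snai1, chr2:167537945-167538194, plus strand: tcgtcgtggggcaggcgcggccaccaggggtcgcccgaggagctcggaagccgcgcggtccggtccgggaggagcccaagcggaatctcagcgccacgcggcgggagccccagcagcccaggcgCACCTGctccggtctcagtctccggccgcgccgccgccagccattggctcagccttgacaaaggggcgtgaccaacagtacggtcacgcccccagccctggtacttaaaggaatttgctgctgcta
Lhx2, chr2:38339031-38339280, plus strand: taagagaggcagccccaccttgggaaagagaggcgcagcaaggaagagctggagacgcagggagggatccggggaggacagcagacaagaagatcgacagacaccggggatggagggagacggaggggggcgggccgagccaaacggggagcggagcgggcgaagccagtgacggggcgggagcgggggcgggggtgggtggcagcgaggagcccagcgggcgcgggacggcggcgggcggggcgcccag
Msx1, chr5:37824586-37824835, minus strand: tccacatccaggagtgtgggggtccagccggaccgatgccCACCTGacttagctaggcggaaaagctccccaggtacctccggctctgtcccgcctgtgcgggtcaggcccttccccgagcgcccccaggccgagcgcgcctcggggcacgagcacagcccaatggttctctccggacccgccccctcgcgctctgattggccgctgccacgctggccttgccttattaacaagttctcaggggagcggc
The Snai1 and Msx1 windows each held the same 6 letters, CACCTG, 126 bases before the Snai1 start and 210 bases before the Msx1 start, and the Lhx2 window held no CANNTG. Counted on both strands, CANNTG stood in 5 of the 10 windows, or 50%, against 66.2% of the 32851 windows of all genes. CAGGTG, whose reverse complement is CACCTG and which is one form of CANNTG, stood in 2 of 10 windows (20%) against 17.2% of all. CATCTG, another form of CANNTG, stood in 0 of 10 against 14.4%, and the T-box motif GGTGTGA in 0 of 10 against 3.33%. The homeodomain motif TAATTA stood in the windows of Prrx1 and Msx2, 2 of 10 (20%), against 4.84% of all. These are letter matches in short windows and no measure of binding.

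Levels of different genes were set side by side as CPM per kb of merged exon sequence. Msx1 and Prrx2 were the highest of the 10 in all 4 groups. Msx1 averaged 78.8 ± 10.4 CPM per kb in buds labelled Tbx3-deficient and 73.1 ± 5.46 CPM per kb in their wild types, and 84.7 ± 15.8 CPM per kb in Hand2-deficient buds and 71.7 ± 5.36 CPM per kb in their wild types (SD, n = 3 each). The libraries of Msx1 and Prrx2 overlapped in every group, so their order is not resolved. Snai2 and Emx2 were the lowest: Snai2 averaged 9.22 ± 0.525 and 8.72 ± 0.730 CPM per kb in deficient and wild-type buds of the Tbx3 series, and 15.5 ± 1.71 and 11.2 ± 0.595 CPM per kb in those of the Hand2 series. Between these ends stood Prrx1, Lhx2, Snai1, Lmx1b and Lhx9, with Msx2 in the eighth place of each group. Most neighbours in that middle stretch overlapped. The step without overlap lay between Lmx1b and Prrx1 in buds labelled Tbx3-deficient, between Lhx2 and Lhx9 in Hand2-deficient buds and between Lmx1b and Lhx9 in both wild-type groups. In Hand2-deficient buds Snai1 stood in the seventh place at 33.8 ± 2.04 CPM per kb, and in their wild types it stood in the fourth place at 47.9 ± 3.52 CPM per kb. The order of the middle group depends on the length used: Prrx1 has 11.066 kb of merged exons but a longest transcript of 6.527 kb, and by longest transcript Snai1 stood in the seventh place in Hand2-deficient buds and in the sixth place in their wild types.

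**Figure D1:**
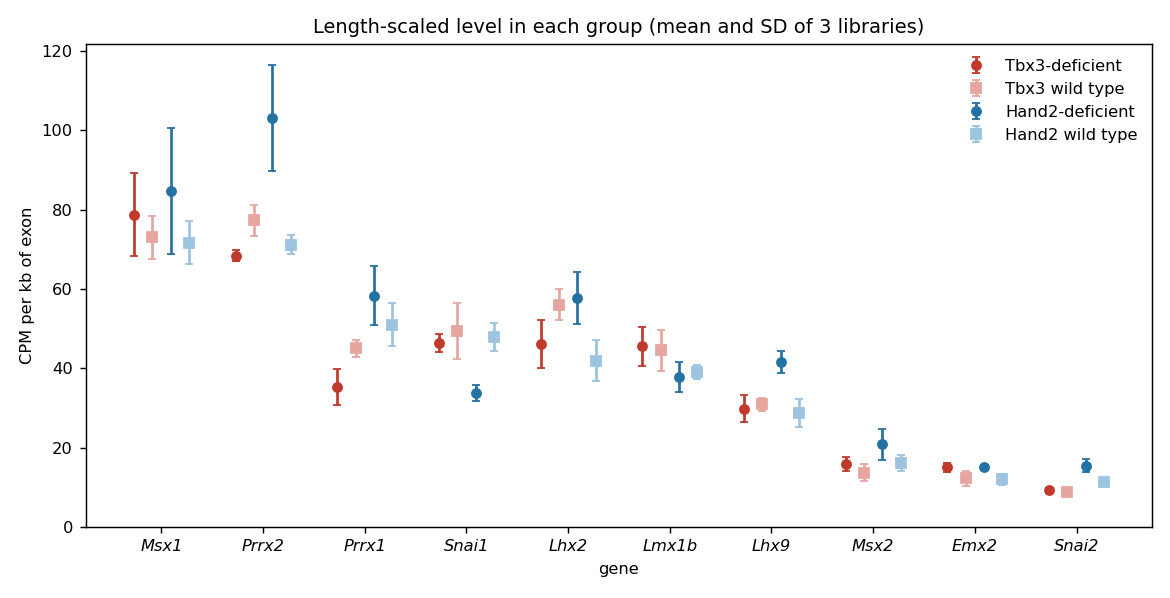
Level of each gene in CPM per kb of merged exon (vertical axis) for the 10 genes (horizontal axis, ordered by the Hand2 wild types), as mean and SD of 3 libraries in each of the 4 groups. Prrx2 and Msx1 are highest and Emx2 and Snai2 lowest in every group.

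In Hand2-deficient buds 5 of the 10 genes changed: Prrx2, Lhx2, Lhx9 and Snai2 rose and Snai1 fell, each by between 1.38 and 1.45-fold or, for Snai1, to 0.706 of wild type. The test was edgeR's quasi-likelihood F test with Benjamini-Hochberg adjustment over 17488 genes, called at an adjusted p under 0.05. Of all genes tested there 10.5% were called, 4.68% higher and 5.82% lower. The median log2 fold change of the 10 genes was 0.35 and of all genes 0.013, and the median size of change was 0.42 and 0.16. In buds labelled Tbx3-deficient 0 of the 10 genes were called by the same edgeR test over 15130 genes, of which 1.01% were called, 0.727% higher and 0.284% lower. At an unadjusted p under 0.05 there were 4 of 10 (Prrx1, Prrx2, Lhx2 and Emx2), against 14.3% of all genes, and DESeq2 called 1, Prrx1. The median log2 fold change of the 10 genes in that series was -0.010 and of all genes -0.0030. Libraries did not overlap between groups for 6 of 10 genes in the Hand2 series (38.2% of all genes), with deficient buds above wild types for 5 (18.7% of all) and below for 1 (19.5% of all). The same held for 4 of 10 in the Tbx3 series (20.6% of all genes), above for 1 (10.7% of all) and below for 3 (9.95% of all). Each bud is bulk tissue, so fewer cells that express a gene and less RNA of it per cell cannot be told apart.

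**Figure D2:**
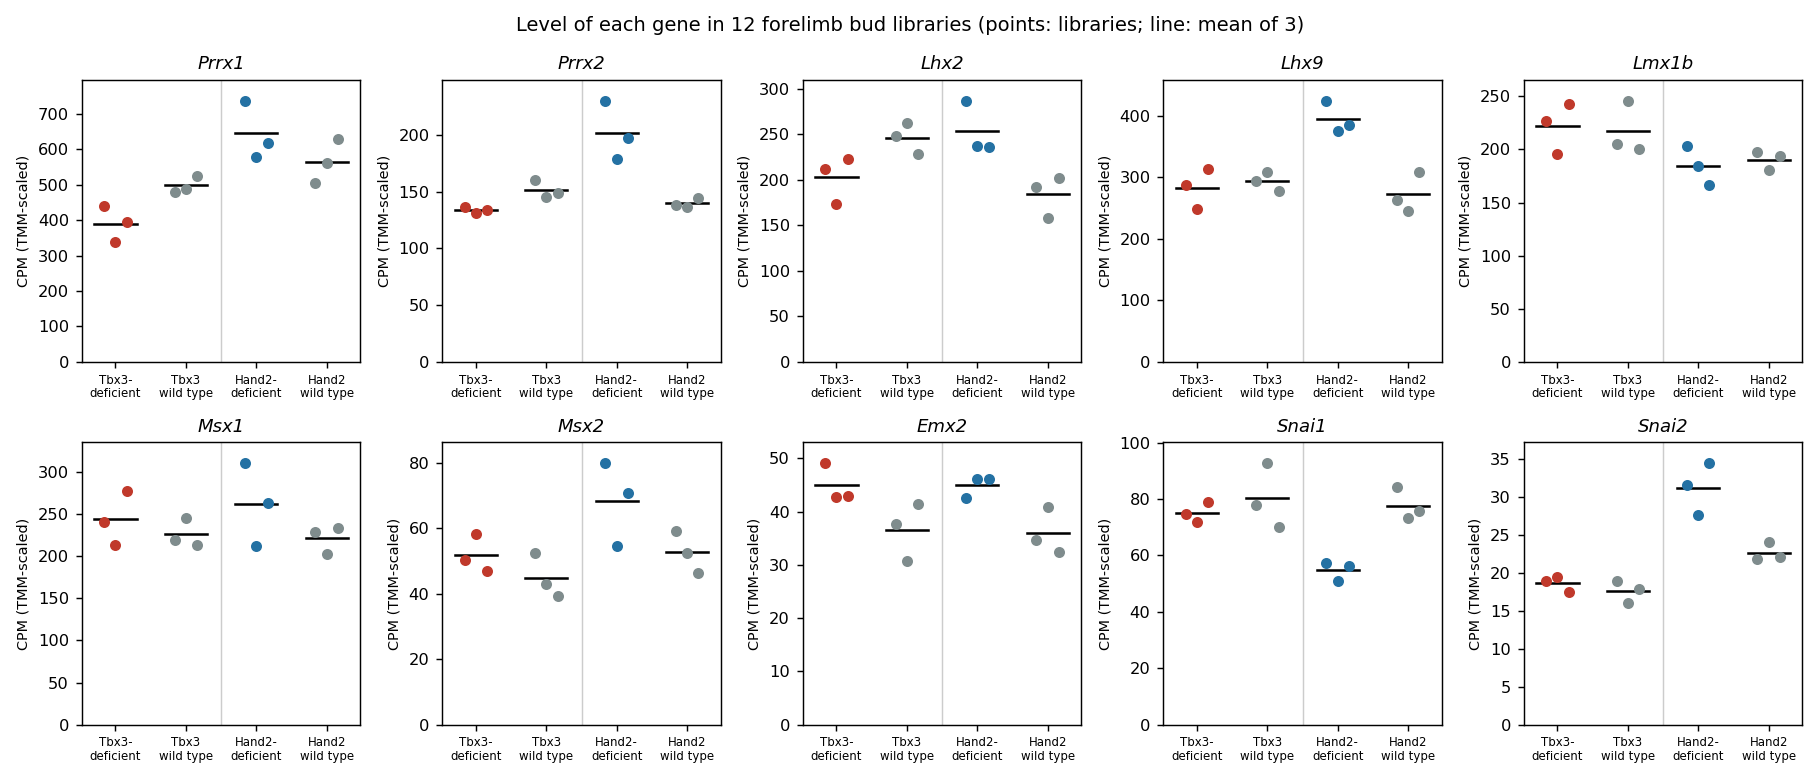
CPM of each gene (vertical axis of each panel, from 0) in every library, with points for libraries and lines for means of 3, deficient left of wild type in each series. In the Hand2 series the deficient points of Prrx2, Lhx2, Lhx9, Emx2 and Snai2 lie above all wild-type points and those of Snai1 below them.

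**Figure D3:**
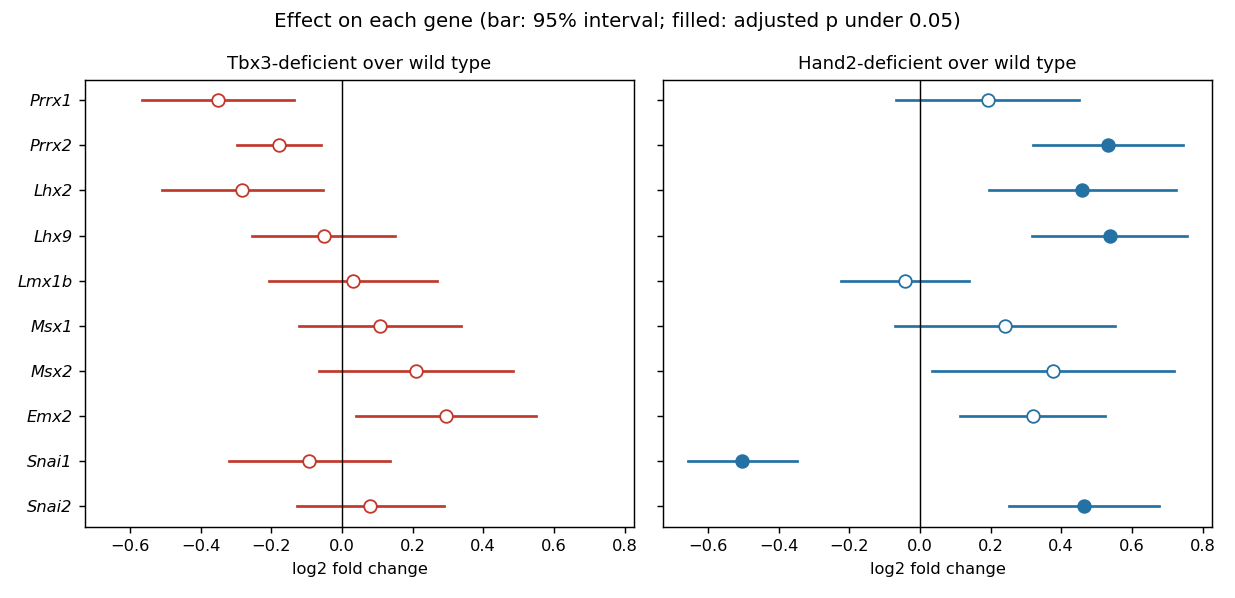
Log2 fold change of deficient over wild type (horizontal axis) for each gene (vertical axis), Tbx3 series left and Hand2 series right, with bars for 95% intervals and filled points for genes called. The filled points are those of Prrx2, Lhx2, Lhx9, Snai1 and Snai2 in the Hand2 series, from -0.50 to 0.54.

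Prrx1 (ENSMUSG00000026586, GRCm38 chromosome 1, 163245119 to 163313710, minus strand) encodes a paired-related homeodomain protein of limb and craniofacial mesenchyme, and its regulatory sequence drives the Cre used here. It had 439, 338 and 395 CPM in buds labelled Tbx3-deficient and 480.3, 489 and 525 CPM in their wild types. All 3 deficient libraries lay below all wild types, by a log2 fold change of -0.35 (SE 0.0932), which edgeR did not call (adjusted p = 0.148). DESeq2 (adjusted p = 0.00332) and edgeR without the filter on low counts (adjusted p = 0.0338) did call it. In Hand2-deficient buds Prrx1 had 737, 579 and 618 CPM, against 505, 561 and 628 CPM in their wild types. These groups overlapped, and the log2 fold change of 0.19 (95% interval -0.07 to 0.45) was not called by edgeR (adjusted p = 0.266).

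Prrx2 (ENSMUSG00000039476, chromosome 2, 30834972 to 30881251, plus strand), the paralogue that shares skeletal functions with Prrx1, was the more abundant of the pair per kb in every library. It had 230.3, 179 and 197 CPM in Hand2-deficient buds and 138, 136 and 145 CPM in their wild types. Every deficient library was above every wild type, with replicate 1 highest, and edgeR called the log2 fold change of 0.53 (SE 0.0900, adjusted p = 0.0210). In buds labelled Tbx3-deficient it had 137, 131 and 134 CPM and in their wild types 160.3, 146 and 149 CPM. Here every deficient library was below every wild type, but the step was small, -0.18 on the log2 scale (SE 0.0518), and edgeR did not call it (adjusted p = 0.180).

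Lhx2 (ENSMUSG00000000247, chromosome 2, 38339281 to 38369733, plus strand), a LIM-homeodomain gene of the distal limb mesenchyme, had log2 fold changes of opposite sign in both series. In Hand2-deficient buds it had 287, 237 and 236 CPM, against 192, 158 and 202 CPM in their wild types. The groups did not overlap, and edgeR called the log2 fold change of 0.46 (SE 0.113) narrowly, at an adjusted p of 0.0474. Buds labelled Tbx3-deficient had 212, 173 and 223 CPM, against 248, 263 and 228 CPM in their wild types. All 3 deficient libraries were again separate from the wild types, this time below them, with a log2 fold change of -0.28 (SE 0.0989) that edgeR did not call (adjusted p = 0.252).

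Lhx9 (ENSMUSG00000019230, chromosome 1, 138825186 to 138848577, minus strand), which overlaps with Lhx2 in function in the mouse limb, had 425, 375 and 386 CPM in Hand2-deficient buds and 263, 245 and 309 CPM in their wild types. The lowest deficient library was above the highest wild type, and edgeR called the log2 fold change of 0.54 (SE 0.0927, adjusted p = 0.0220), a rise as large as that of Prrx2. Lhx9 had 288, 248 and 313 CPM in buds labelled Tbx3-deficient and 293, 309 and 278 CPM in their wild types. These libraries were interleaved, with a log2 fold change of -0.05 and a 95% interval of -0.25 to 0.15.

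Lmx1b (ENSMUSG00000038765, chromosome 2, 33560965 to 33640511, minus strand), the LIM-homeodomain gene that specifies dorsal limb mesenchyme downstream of WNT7A, was not called in either series. It had 204, 184 and 167 CPM in Hand2-deficient buds and 197, 180.2 and 194 CPM in their wild types, and the 95% interval of its log2 fold change of -0.04 was -0.22 to 0.14. The buds labelled Tbx3-deficient had 227, 196 and 243 CPM, against 206, 246 and 200.4 CPM in their wild types, and the interval of its log2 fold change of 0.03 was -0.21 to 0.27. The libraries of both groups were interleaved in both series.

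Msx1 (ENSMUSG00000048450, chromosome 5, 37820485 to 37824583, minus strand), a homeobox gene induced by BMPs, had 310.4, 213 and 264 CPM in Hand2-deficient buds and 229, 203 and 234 CPM in their wild types. Deficient replicate 2 lay among the wild types, and the log2 fold change of 0.24 was not called by edgeR (adjusted p = 0.250). The Tbx3 series gave 241, 214 and 278 CPM in buds labelled Tbx3-deficient, against 219.8, 245 and 214 CPM in their wild types (log2 fold change 0.11, 95% interval -0.12 to 0.34).

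Msx2 (ENSMUSG00000021469, chromosome 13, 53466884 to 53473074, minus strand), its paralogue with shared roles in limb patterning and skull growth, had 79.8, 54.6 and 70.8 CPM in Hand2-deficient buds and 59.3, 52.5 and 46.3 CPM in their wild types. The same deficient replicate 2 fell within the wild-type range. Its log2 fold change of 0.38 had an adjusted p of 0.127 in edgeR and of 0.0295 in DESeq2. The level of Msx2 in buds labelled Tbx3-deficient was 50.4, 58.3 and 46.9 CPM, against 52.5, 42.9 and 39.3 CPM in their wild types, which overlapped (log2 fold change 0.21, edgeR adjusted p = 0.480).

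Emx2 (ENSMUSG00000043969, chromosome 19, 59458372 to 59465357, plus strand), a homeobox gene needed for the scapula in the mouse, was set apart from wild type in the same direction in both series without being called in either. It had 42.5, 46.1 and 46.1 CPM in Hand2-deficient buds and 34.7, 40.8 and 32.4 CPM in their wild types, a log2 fold change of 0.32 (SE 0.0868, edgeR adjusted p = 0.0589). At the earlier stage it had 49.0, 42.8 and 43.0 CPM in buds labelled Tbx3-deficient, against 37.7, 30.6 and 41.4 CPM in their wild types, a log2 fold change of 0.30 (SE 0.1104, edgeR adjusted p = 0.282). DESeq2 (adjusted p = 0.00723) and edgeR without the filter (adjusted p = 0.0421) called Emx2 in the Hand2 series. The antisense gene Emx2os shares 264 exon bases with Emx2, and since the strand of the libraries is not stated, reads from both cannot be told apart there. Emx2os itself averaged 7.26 ± 2.06 CPM in Hand2-deficient buds and 4.86 ± 1.01 CPM in their wild types, and 5.02 ± 4.19 CPM in buds labelled Tbx3-deficient and 4.07 ± 2.11 CPM in theirs (SD, n = 3 each).

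Snai1 (ENSMUSG00000042821, chromosome 2, 167538195 to 167542814, plus strand), a zinc-finger repressor of epithelial genes, was the only one of the 10 genes called lower. It had 57.1, 51.0 and 56.3 CPM in Hand2-deficient buds and 84.1, 73.1 and 75.8 CPM in their wild types. The groups were far apart for their spread, and the log2 fold change of -0.50 (SE 0.0650) had the smallest adjusted p of the 10 genes in edgeR, 0.0101. Snai1 had 74.6, 71.9 and 79.0 CPM in buds labelled Tbx3-deficient, within the 77.9, 92.6 and 70.0 CPM of their wild types (log2 fold change -0.09, 95% interval -0.32 to 0.14).

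Snai2 (ENSMUSG00000022676, chromosome 16, 14705852 to 14709385, plus strand), the related repressor of neural crest and mesenchyme, went in the other direction. It had 31.7, 27.6 and 34.5 CPM in Hand2-deficient buds and 21.8, 24.02 and 22.1 CPM in their wild types, and edgeR called the log2 fold change of 0.46 (SE 0.0897, adjusted p = 0.0294). Levels in the Tbx3 series were 18.9, 19.5 and 17.4 CPM in buds labelled Tbx3-deficient and 18.9, 16.03 and 17.9 CPM in their wild types, which overlapped (log2 fold change 0.08, edgeR adjusted p = 0.738).

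Ratios of paralogues inside a library do not depend on how libraries are scaled. Per kb, the ratio of Snai1 to Snai2 averaged 2.19 in Hand2-deficient buds and 4.27 in their wild types. On the log2 scale it was 1.17, 1.21 and 1.03 in the deficient libraries and 2.27, 1.92 and 2.10 in the wild types. The groups did not overlap, at 1.13 ± 0.0950 in deficient buds and 2.10 ± 0.171 in wild types (SD, n = 3 each). The difference of -0.96 had p = 0.1 in an exact 2-sided permutation test, the smallest p that 3 against 3 libraries allow, and 0.267 after adjustment over the 8 ratio tests. In buds labelled Tbx3-deficient the same log2 ratio was 2.33 ± 0.152, against 2.498 ± 0.306 in their wild types, with overlap. The log2 ratio of Prrx1 to Prrx2 was -0.82 ± 0.0246 in Hand2-deficient buds and -0.49 ± 0.1249 in their wild types, again without overlap (exact p = 0.1). The log2 ratio of Lhx2 to Lhx9 did not overlap in the Tbx3 series, at 0.63 ± 0.0384 in buds labelled Tbx3-deficient and 0.86 ± 0.0258 in their wild types (exact p = 0.1). In the Hand2 series, where both genes rose, it was 0.47 ± 0.0715 in deficient buds and 0.55 ± 0.0993 in wild types (exact p = 0.4). The ratio of Msx1 to Msx2 overlapped between groups in both series.

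**Figure D4:**
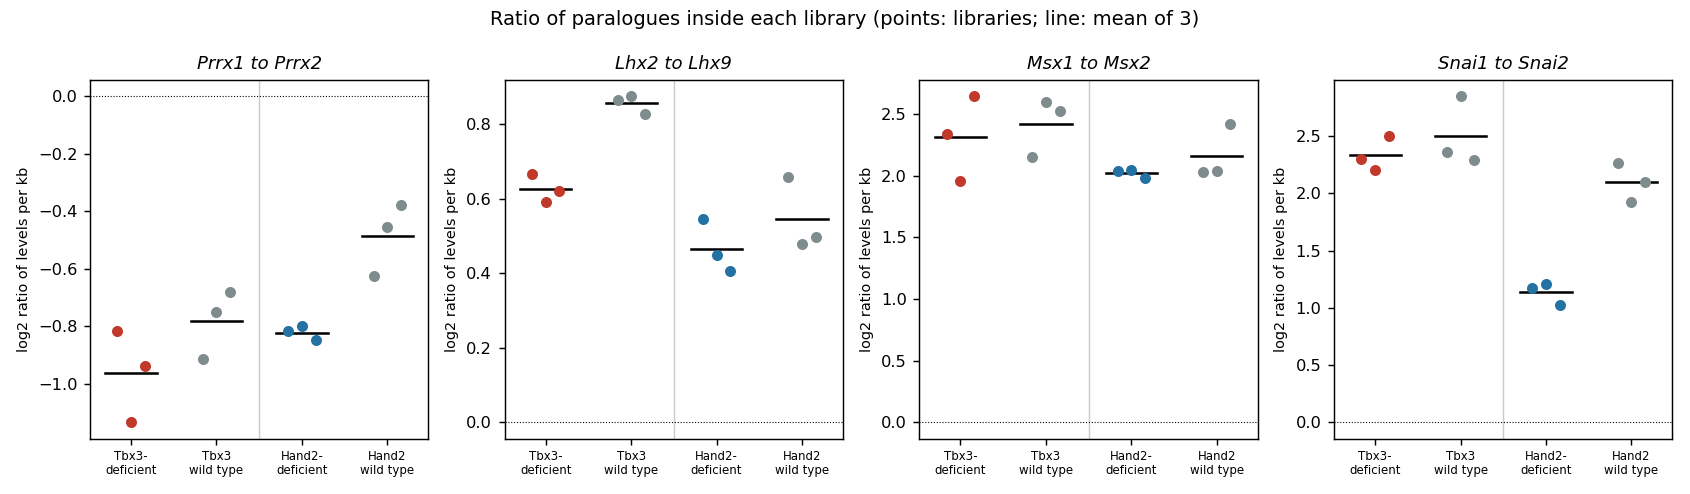
Log2 ratio of levels per kb (vertical axis) of each pair of paralogues in every library, with points for libraries and lines for means of 3, deficient left of wild type, and a dotted line at equal levels. The Snai1 to Snai2 points of Hand2-deficient buds lie below all the others, about their mean of 1.13.

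Whether both deficiencies acted differently was tested as the Hand2 effect minus the Tbx3 effect in 1 fit of all 12 libraries, where edgeR called 1.68% of 17360 genes, 0.789% higher and 0.893% lower. It called 2 of the 10 genes, both higher. For Prrx2 the difference was 0.71 on the log2 scale (SE 0.107, adjusted p = 0.00994), and for Lhx2 it was 0.74 (SE 0.165, adjusted p = 0.0485). Lhx9, with 0.59 (SE 0.139), was just outside at an adjusted p of 0.0611 in edgeR. Prrx1 with 0.54, Snai1 with -0.41 and Snai2 with 0.38 had adjusted p-values of 0.113, 0.150 and 0.161 in the same edgeR test, so their effects are not shown to differ between the series. The difference was smallest for Emx2, at 0.03 with a 95% interval of -0.30 to 0.36. Stage, the gene targeted, the kind of allele, the Cre transgene and sequencing depth differ together between both series and cannot be told apart.

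Between the wild types of both series edgeR called 0 of the 10 genes and 2.07% of all genes, 1.05% higher and 1.02% lower in the Hand2 wild types, with 2 of the 10 at an unadjusted p under 0.05, against 18.7% of all genes, and 0 of 10 called by limma-voom. The 2 genes, a share near that of all genes, were Lhx2, lower in Hand2 wild types than in Tbx3 wild types (log2 difference -0.43, edgeR adjusted p = 0.0775), and Snai2, higher in Hand2 wild types (log2 difference 0.35, edgeR adjusted p = 0.0748). The Hand2 wild types are later by stage, carry Prrx1-Cre and were sequenced more deeply, and these differences cannot be told apart.

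The calls in the Hand2 series did not rest evenly on the libraries. Hand2-deficient replicate 1, the library with ribosomal RNA, was the highest of the 6 for 7 of the 10 genes (Prrx1, Prrx2, Lhx2, Lhx9, Lmx1b, Msx1 and Msx2). The share of all genes for which it was highest was not counted, so this is not shown to be particular to the 10. With CT010467.1 removed from all libraries, an alternative chosen after seeing the data, the same 5 genes were called. Without the whole library, edgeR called 2 of them: Snai1 at a log2 fold change of -0.53 (adjusted p = 0.0308) and Prrx2 at 0.43 (adjusted p = 0.0278). Over all genes its calls fell from 1836 to 487 in that fit. Lhx9 then stood at 0.48 (adjusted p = 0.0681), Snai2 at 0.45 (adjusted p = 0.0860) and Lhx2 at 0.36 (adjusted p = 0.116) in edgeR, with the directions as before. Snai1 was called in edgeR with each of the 6 libraries left out in turn, at adjusted p-values of 0.0145 to 0.0436. Lhx2 lost its call whichever of the 6 was left out, at adjusted p-values of 0.0626 to 0.116. Prrx2 lost its call without wild-type replicate 1, wild-type replicate 3 or deficient replicate 3. Lhx9 lost it without wild-type replicate 1, deficient replicate 1 or deficient replicate 3, and Snai2 with any 1 of these 4 libraries left out. Over all genes edgeR called 368 without wild-type replicate 1, 218 without wild-type replicate 3 and 366 without deficient replicate 3. The loss of calls in these fits was therefore not particular to the 10 genes. In the Tbx3 series, replicate 2 labelled Tbx3-deficient was the lowest of 6 for 5 genes (Prrx1, Prrx2, Lhx2, Lhx9 and Lmx1b), again without a share over all genes. Without that library the log2 fold change was -0.26 for Prrx1 and -0.18 for Lhx2.

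**Figure D5:**
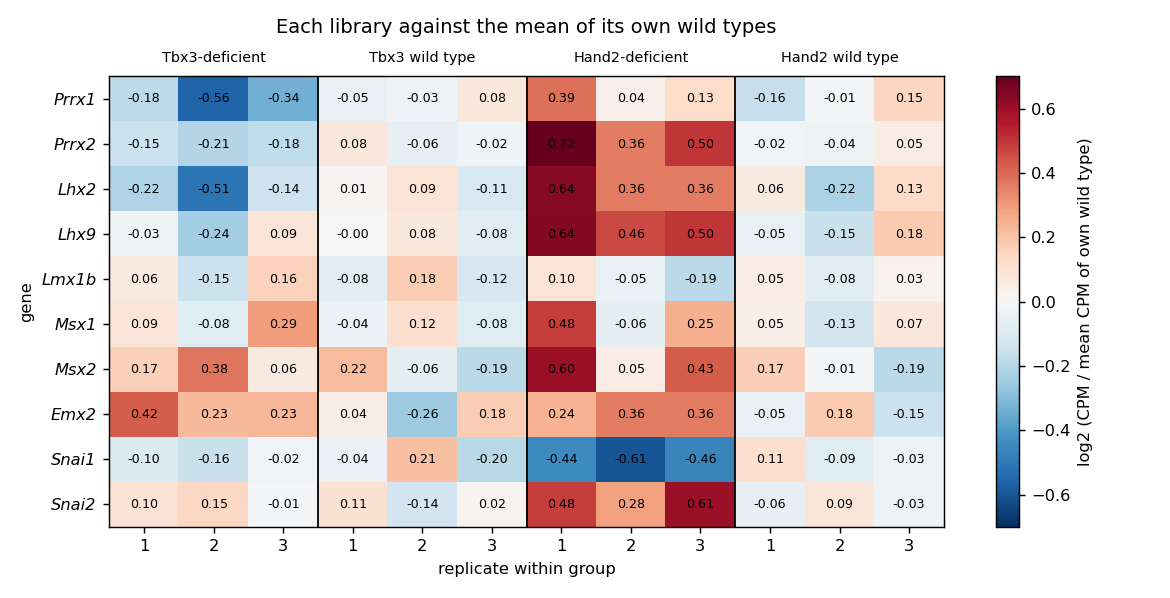
Log2 of each library's CPM over the mean of its own wild types (colour and printed value), for the 10 genes (vertical axis) in the 3 libraries of each group (horizontal axis). Hand2-deficient replicate 1 is at 0.72 for Prrx2, and all 3 Hand2-deficient libraries are at -0.44 or below for Snai1.

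Sex differed between the groups, and its part in the Hand2 calls was examined within each sex. Snai1 was lower in the Hand2-deficient female than in the 2 female wild types by a log2 difference of -0.62, and in the 2 deficient males against the male wild type by -0.42. Prrx2 was higher by 0.38 in females and 0.56 in males, Lhx9 by 0.56 and 0.39, Lhx2 by 0.44 and 0.37, and Snai2 by 0.27 and 0.58. Msx2 differed by -0.03 in females and 0.70 in males. A sex-by-genotype term in edgeR, added after these values were seen and resting on 2 residual degrees of freedom per gene, gave -0.73 for Msx2 as the effect in females minus that in males (SE 0.155, unadjusted p = 0.00477, adjusted p = 0.981). It called 0 of the 10 genes and 0 of 17488 genes in all, and Msx2 alone of the 10 had an unadjusted p under 0.05, as did 3.76% of all genes. With sex as a covariate edgeR called Prrx2, Lhx9 and Snai1 (adjusted p = 0.0411, 0.0286 and 0.0286), and not Lhx2 (0.0846) or Snai2 (0.0674). In the Tbx3 series there was no male wild type, and the female labelled Tbx3-deficient differed from the 3 female wild types by -0.34 for Prrx1, -0.18 for Prrx2, -0.14 for Lhx2 and 0.23 for Emx2 on the log2 scale.

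Among libraries of 1 group some pairs of the 10 genes varied in the same direction and others in opposite directions. After each library was set against the mean of its group, Lhx2 and Lhx9 had a Pearson r of 0.92 over the 12 libraries (Spearman's rho 0.94, and r 0.86 without the 2 libraries farthest from the median of Lhx2). Lhx2 and Lmx1b had r 0.85 and Lhx2 and Msx1 r 0.83. The lowest was Emx2 with Snai1 at -0.73, which was -0.39 without the 2 farthest libraries. Emx2 was also negative with Lhx2 (-0.55), Lhx9 (-0.55), Lmx1b (-0.58) and Msx1 (-0.51), as was Snai2 with Lmx1b (-0.67). Over all 45 pairs the median r was 0.32, 17 pairs were above 0.5 and 16 were negative. These are descriptions over 12 libraries that share their scaling, and they were not set against pairs of other genes.

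Of 15089 genes tested in both series, those most like each of the 10 were found by Pearson r of log2 CPM over the 12 libraries, each centred on its own series, so that the differences between genotypes count. Snai1 was most like Topbp1 (r = 0.98) and Nufip2 (r = 0.97), and Prrx2 most like Twist1 (r = 0.97), a bHLH gene of the same mesenchyme, and Slc50a1 (r = 0.97). Snai2 was followed by Peli2 and Itpka (r = 0.97 each), Emx2 by Cacnb3 and Srcin1 (r = 0.96 each) and Prrx1 by Cdo1 (r = 0.96) and Cped1 (r = 0.95). Lhx2 was closest to Efnb2 (r = 0.96), which encodes a membrane-bound ephrin ligand, and to Atp8b3 (r = 0.93), and Lhx9 to Disp1 (r = 0.94), which encodes a protein needed for hedgehog release, and Tmem59l (r = 0.93). Lmx1b stood with Ints3 (r = 0.95) and Dnm2 (r = 0.93), Msx2 with Tanc2 (r = 0.92) and Dele1 (r = 0.90), and Msx1 with Srsf5 and Cttnbp2 (r = 0.85 each). These genes were picked for the highest r over 12 libraries, so a high r follows from the choice and tests no link. Against group means, r was 0.74 for Lhx9 with Tmem59l, 0.78 for Lhx2 with Atp8b3 and 0.96 for Lhx2 with Efnb2.

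Genes that work with these factors were read from lists in the same edgeR fits. The lists were chosen with earlier results of these data known, so counts from them are descriptions. Of all genes tested, 4.68% were called higher and 5.82% lower in the Hand2 series, and 0.727% and 0.284% in the Tbx3 series. Of the paired-type relatives, 3 of 9 tested rose in Hand2-deficient buds and none passed the test in the other direction (median log2 fold change of the list 0.91). Among them Alx4, a gene of the anterior limb mesenchyme, averaged 182 ± 27.2 CPM in deficient buds and 92.9 ± 3.65 CPM in wild types, and Pitx1, the hindlimb gene, 2.53 ± 0.661 and 0.961 ± 0.283 CPM (SD, n = 3 each). In buds labelled Tbx3-deficient 2 of 8 tested rose (list median 0.11): Pitx1 averaged 12.7 ± 0.526 CPM, against 0.610 ± 0.250 CPM in wild types, and Alx4 146 ± 11.8 CPM, against 91.2 ± 7.90 CPM. Shox2, a homeobox gene of the proximal limb named here after its values were seen, missed the threshold in both series. It had 124, 98.1 and 100.01 CPM in Hand2-deficient buds, all below the 130.3, 168 and 197 CPM of their wild types (log2 fold change -0.62, edgeR adjusted p = 0.0513). In buds labelled Tbx3-deficient it had 82.9, 39.8 and 55.8 CPM, also below all wild types at 115, 116 and 149 CPM (log2 fold change -1.09, edgeR adjusted p = 0.0974). Of the TALE, Iroquois and other mesenchyme homeobox genes 5 of 13 rose in Hand2-deficient buds and none fell (list median 0.28), among them Irx3 with 162 ± 19.3 CPM in deficient buds and 105 ± 4.03 CPM in wild types. None of 12 was called in the Tbx3 series (list median 0.27). Of 14 genes of the ridge and SHH loop, through which the LIM factors act on outgrowth, 9 fell in Hand2-deficient buds and none rose (list median -0.81), with Ptch1, the SHH receptor and target, at 33.8 ± 4.52 CPM in deficient buds and 116 ± 6.88 CPM in wild types. In buds labelled Tbx3-deficient Ptch1 alone of the 14 fell (list median -0.05), with 68.4 ± 7.29 CPM against 98.7 ± 6.40 CPM in wild types.

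Lists of partners, upstream signals and remaining relatives of the 10 genes held 53 genes tested in the Hand2 series, of which edgeR called 7 (13.2%, against 10.5% of all genes), and 51 tested in the Tbx3 series, of which it called 0 (against 1.01% of all genes). At an unadjusted p under 0.05 were 20 of the 53 and 15 of the 51, against 32.4% and 14.3% of all genes. Of 9 LIM cofactors 1 rose (Lmo4) and 1 fell (Lmo2) in Hand2-deficient buds and none was called in the Tbx3 series (list medians 0.012 and -0.16). Lmo4, a LIM-only protein, averaged 113 ± 3.70 CPM in Hand2-deficient buds and 96.7 ± 3.35 CPM in their wild types. None of the 7 dorsoventral signalling genes that act upstream of Lmx1b was called in either series (list medians -0.048 in the Hand2 and -0.013 in the Tbx3 series). The 18 BMP pathway genes hold ligands, receptors and SMADs upstream of Msx1 and Msx2, and also genes that respond to BMPs, such as Id2. Of these 18, Id2 rose and Grem1, a BMP antagonist, fell in Hand2-deficient buds (list median 0.0061), and none was called in the Tbx3 series (list median 0.086). Grem1 averaged 21.9 ± 3.82 CPM in Hand2-deficient buds and 55.0 ± 8.64 CPM in their wild types. Of 12 genes of the epithelial-mesenchymal transition, Tgfb2, a secreted ligand that promotes the transition, and Twist1, a bHLH factor, rose in Hand2-deficient buds (list median 0.043), and none was called in the Tbx3 series (list median 0.0067). Of the 14 remaining members of the LIM, Emx, Msx and Snail families, 8 were tested in the Hand2 series, where Isl1 rose at a low level (list median 0.21), and 6 in the Tbx3 series, where none was called (list median 0.062).

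Markers of other tissue differed between groups and their part in the results above was not tested. The summed CPM of 6 body wall and coelomic markers was 24.04 to 52.2 in Hand2-deficient buds and 6.53 to 30.5 in their wild types, and 44.5 to 87.0 in buds labelled Tbx3-deficient and 7.54 to 45.5 in theirs. Of these 6 markers 5 were tested in each series, and Gata4 was called in the Hand2 series and none in the Tbx3 series. Neural crest markers, relevant for Snai2, summed to 44.3 to 51.8 CPM in Hand2-deficient buds and 33.4 to 45.5 CPM in their wild types. In deficient and wild-type buds of the Tbx3 series they summed to 63.4 to 87.9 CPM and 46.3 to 53.6 CPM. Of the 5, 4 were tested in the Hand2 series and 3 in the Tbx3 series, and none was called. Most of the Tbx3 series sums was Ngfr, which averaged 61.6 ± 13.7 CPM in deficient buds and 37.3 ± 5.42 CPM in wild types. Sox10 averaged 0.347 ± 0.441 CPM and 0.250 ± 0.0540 CPM there (SD, n = 3 each). Somite markers summed to 77.6 to 100.7 CPM in Hand2-deficient buds and 55.8 to 78.5 CPM in their wild types. In deficient and wild-type buds of the Tbx3 series they summed to 87.7 to 104 CPM and 69.9 to 79.6 CPM. None was called of the 6 tested in the Hand2 series and the 5 tested in the Tbx3 series. Ectoderm and ridge markers summed to 279 to 299.9 CPM in Hand2-deficient buds and 310.3 to 348 CPM in their wild types, with Fgf8 called lower. The list median log2 fold change there was only -0.046. Fgf8 averaged 26.3 CPM in deficient buds and 44.3 CPM in wild types, and Sp6 26.7 and 35.8 CPM. Krt8, Krt18, Trp63, Esrp1 and Cdh1 had log2 fold changes of -0.071 to 0.036, Epcam -0.23, Cldn6 -0.14 and Krt14 0.48. In deficient and wild-type buds of the Tbx3 series the list summed to 334 to 349 CPM and 311 to 336 CPM, with Cldn6 called higher. The list of limb mesenchyme markers other than the 10 genes holds Hand2, the gene deleted in that series. Its other 5 genes summed to 794 to 866 CPM in Hand2-deficient buds and 729 to 803 CPM in their wild types, with Twist1 called higher and Fgf10 lower, and to 810.3 to 851 CPM and 843 to 925 CPM in deficient and wild-type buds of the Tbx3 series, where Tbx5 was called lower. In the Hand2 series muscle progenitor markers summed to 107 to 109 CPM in deficient buds and 81.5 to 95.02 CPM in wild types with none of 4 called, endothelial markers to 216 to 236 CPM and 202 to 207 CPM with Cdh5 called higher, and macrophage markers to 5.55 to 10.9 CPM and 3.25 to 4.89 CPM with Ptprc called higher. The ranges of neuron and red cell markers overlapped between the groups of that series. In the Tbx3 series neuron markers summed to 24.4 to 41.7 CPM in deficient buds and 41.9 to 56.8 CPM in wild types, and macrophage markers to 4.67 to 6.02 CPM and 1.34 to 3.88 CPM. Only 2 of 6 neuron and 2 of 4 macrophage markers passed the filter on low counts there, and none was called. Endothelial, muscle progenitor and red cell ranges overlapped there. No gene of these marker lists was at 0 in any group.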

How the data were processed

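RNA of forelimb buds, 1 pair per library, was sequenced as 85 bp single-end reads from libraries made with a SMARTer kit, with an RNA integrity number of at least 8.0, per the labels' protocols. The deposited values are expected counts per Ensembl gene, estimated by the authors with RSEM 1.3.0 after STAR 2.5.2 on mm10, with FastQC 0.11.4, per the submitters' processing notes. Sources used here do not give the strand or the annotation release. Per library 12.5% to 16.2% of values were not whole, and all were rounded before testing. Genes were matched by identifier to GENCODE M21 (GRCm38), which gave a symbol to 53360 of 53465.

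Deficient and wild-type libraries of a series were fitted together, 6 at a time, in edgeR 4.0.16 (R 4.3.3). Genes were filtered with filterByExpr at a minimum count of 10 and a minimum total of 15, scaled by TMM and tested with the quasi-likelihood F test, with p-values adjusted by Benjamini-Hochberg across every gene tested. CPM were scaled within each series. Log2 fold changes put deficient over wild type (prior count 0.125), with a standard error of the fold change over the square root of F. The difference of effects and the wild-type difference came from a 4-group fit of 12 libraries. Log2 CPM for correlations used a prior count of 2. The edgeR fits were run on simulated data with known changes, each larger than the changes called among the homeobox and Snail genes followed here. That run gives no measure of how often changes of their size are missed. Chi-square per gene between replicates was 14.0 to 223, where counting error alone gives about 1, so errors are those between replicates. Alternatives were DESeq2 1.42.0, its size factors, limma-voom (limma 3.58.1), no filter on low counts, a replicate block, sex as covariate and leaving out each library.

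The 10 genes and the gene lists were chosen with earlier results of these data known. Named genes are the 10, the 2 genes with curated symbols most like each, up to 4 called genes per list, both targeted genes and markers that move with a result; some called genes of the lists are not reported here. RefSeq promoter windows (GRCm38.p6) were read from the reference table, which held 9 of the 10 genes.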

Additional observations from a re-analysis of the deposited data

Results flagged for a closer look

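The Hand2 effect and the Tbx3 effect differed for Prrx2 and Lhx2 by edgeR's test of the difference itself. For Prrx2 the difference on the log2 scale was 0.71 (95% interval 0.48 to 0.95, edgeR adjusted p = 0.00994): all 3 Hand2-deficient libraries were above their wild types and all 3 libraries labelled Tbx3-deficient were below theirs. It was called under all 17 alternatives, at adjusted p-values up to 0.0472 in edgeR or limma-voom. For Lhx2 the difference was 0.74 (95% interval 0.38 to 1.10, edgeR adjusted p = 0.0485), with the same arrangement of libraries, and it was called under 2 of 17 alternatives (no filter on low counts and limma-voom). Depth, stage, Cre transgene and allele differ together between both series, and their parts cannot be told apart. The count of Tbx3 does not check the labels of the Tbx3 series.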

How the results depend on the processing

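Of the values of the 10 genes under the alternatives, 113 of 140 in the Hand2 series and 121 of 130 in the Tbx3 series kept their direction and their side of the threshold. These totals include genes that were not called and stayed so. Of 14 alternatives in the Hand2 series, Snai1 was called in 14, Prrx2 and Lhx9 in 10 each, Snai2 in 8 and Lhx2 in 6. In the Hand2 series edgeR called 1836 genes and 5 of the 10. DESeq2 called 3492 genes and 7 of the 10 (Emx2 and Msx2 in addition), sex as covariate 526 genes and 3 of the 10, and leaving out each library 218 to 2223 genes and 1 to 5 of the 10. In the Tbx3 series edgeR called 153 genes and 0 of the 10, and 504 without the filter and 550 by DESeq2, each with 1 of the 10 (Prrx1), 99 by limma-voom, 22 with sex, 422 in the 4-group fit and 23 to 220 with a library left out, with 0 of the 10. For the difference of effects 2 of the 10 were called, 1 (Prrx2) with DESeq2's size factors, with sex and with the replicate block, and 1 to 2 with a library left out. In those last fits Prrx2 was called in 12 of 12 and Lhx2 in 0. The other gene called was Snai1 without Tbx3 wild-type replicate 2 and Lhx9 without Hand2 wild-type replicate 3.

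Replicate numbers did not pair the libraries: deviations of same-numbered libraries correlated at -0.0080 to 0.074 in the Tbx3 series and at -0.13 to 0.031 in the Hand2 series. A replicate block left 161 genes and 1 of the 10 (Snai1) in the Hand2 series and 87 genes and 0 of the 10 in the Tbx3 series. The wild-type comparison was not fitted with the block.

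Values that changed sign were all small. With sex as covariate, Lhx9 was 0.093 and Snai2 -0.014 in the Tbx3 series. Leaving out each library gave, in the Tbx3 series, log2 fold changes of -0.13 to 0.035 for Lhx9, -0.040 to 0.13 for Lmx1b and -0.18 to 0.023 for Snai1, and in the Hand2 series -0.12 to 0.026 for Lmx1b. It gave -0.075 to 0.14 for the difference of effects of Emx2. Between wild types it gave -0.091 to 0.019 for Msx1, -0.15 to 0.059 for Emx2 and -0.15 to 0.055 for Snai1. Changes of log2 ratio in the Tbx3 series were -0.28 to 0.069 for Msx1 to Msx2 and -0.27 to 0.0086 for Snai1 to Snai2. Causes were not tested. With 3 libraries a group, the exact tests of ratios cannot go below 0.1.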
